A study of Rattus norvegicus with 9 samples.

Results

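Levels of 10 genes of the endoplasmic reticulum (ER) unfolded protein response were followed in rat kidney cortex. The genes were Hspa5, Hsp90b1, Hyou1, Dnajb9, Sdf2l1, Pdia4, Creld2, Herpud1, Xbp1 and Creb3l1, chosen by name as chaperones, degradation factors and transcription factors of that response. All 10 were found among the 18420 genes of the deposited table, and all 10 had a mean level of at least 10, which 13647 genes reached. RNA came from flash-frozen cortex of ZDF fa/fa rats labelled diabetic, obese animals homozygous for the fa allele of the leptin receptor. All 9 samples carried the same label, Medical Bypass, an intervention that the study sets against gastric bypass surgery, and were numbered as replicates 1 to 9. The study set out to describe kidney disease in this rat and the effect of that intervention, but samples of other groups were not analysed here, so values are compared between replicates and never between treatments. No source used here gives age, sex, drugs, doses, duration or whether each replicate was a separate animal. The p-values therefore speak only of the spread among these 9 samples, part of which may be technical. Levels are gene read counts divided by a size factor for each library, without correction for gene length. A level is therefore compared mainly with other levels of the same gene. Sums over marker genes and rankings by mean level also carry differences in gene length.

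The unfolded protein response is the set of programmes that cells switch on when unfolded proteins build up in the ER. Its 3 sensors in the ER membrane are IRE1 (Ern1), which splices Xbp1 mRNA into the form that encodes an active transcription factor, ATF6, which is cut in the Golgi to release a transcription factor, and PERK (Eif2ak3), which slows translation and raises ATF4. Targets of XBP1 and ATF6 include the folding chaperones of the ER and the machinery that removes misfolded proteins. In the kidney, tubule cells and podocytes make large amounts of membrane and secreted protein, and the response has long been studied there under protein overload and high glucose.

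XBP1 and ATF6 bind short elements in the promoters of their targets. Promoter windows that hold such elements are shown because 6 of these genes have a full match to at least 1 of them. The windows come from RefSeq on the build GRCr8 and run from 250 bases before to 50 bases after a gene's start. They were matched to the 10 genes by symbol, and 10 of 10 had a window. The deposited counts were made on another build, Rnor_5.0, so the windows describe the genes and not the counted reads. Letters were searched on both strands. The ER stress response element ERSE, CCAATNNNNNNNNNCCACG, was present in 22 of 33469 windows of the same length (0.0657%) and in the windows of Hspa5, Hsp90b1, Creld2 and Xbp1. The shorter ERSE-II, ATTGGNCCACG, was present in 17 windows (0.0508%), those of Herpud1 and Hyou1 among them. The XBP1-binding UPRE core, TGACGTGG, was present in 199 windows (0.595%), that of Hyou1 among them, where its last bases overlapped an ERSE-II. With the last base of ERSE left free, CCAATNNNNNNNNNCCACN, 105 windows (0.314%) matched and Herpud1 and Pdia4 joined the 4 genes above. The windows of Dnajb9, Sdf2l1 and Creb3l1 held none of these letters, which says nothing of elements elsewhere.

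The 6 windows with a full match follow on the gene's own strand, 5′ to 3′, with ERSE, ERSE-II and UPRE matches in capitals. They lie on GRCr8 at chr3:38452766-38453065 (plus strand) for Hspa5, chr7:23012244-23012543 (minus) for Hsp90b1, chr7:121789134-121789433 (plus) for Creld2, chr14:84604373-84604672 (plus) for Xbp1, chr19:10614658-10614957 (minus) for Herpud1 and chr8:53602632-53602931 (plus) for Hyou1. Hyou1 also had a second window, starting at base 53602822, which held no match.
Hspa5: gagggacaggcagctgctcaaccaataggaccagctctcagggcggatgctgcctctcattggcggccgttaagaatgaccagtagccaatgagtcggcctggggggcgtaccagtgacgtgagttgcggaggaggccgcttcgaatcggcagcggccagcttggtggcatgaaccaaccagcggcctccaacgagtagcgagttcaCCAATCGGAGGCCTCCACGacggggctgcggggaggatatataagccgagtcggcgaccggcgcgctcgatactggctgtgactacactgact
Hsp90b1: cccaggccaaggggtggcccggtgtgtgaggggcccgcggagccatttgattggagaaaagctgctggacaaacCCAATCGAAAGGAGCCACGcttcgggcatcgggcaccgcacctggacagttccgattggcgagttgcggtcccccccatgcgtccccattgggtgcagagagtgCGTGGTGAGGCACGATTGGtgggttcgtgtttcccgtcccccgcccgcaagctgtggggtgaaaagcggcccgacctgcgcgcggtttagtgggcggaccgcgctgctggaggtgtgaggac
Creld2: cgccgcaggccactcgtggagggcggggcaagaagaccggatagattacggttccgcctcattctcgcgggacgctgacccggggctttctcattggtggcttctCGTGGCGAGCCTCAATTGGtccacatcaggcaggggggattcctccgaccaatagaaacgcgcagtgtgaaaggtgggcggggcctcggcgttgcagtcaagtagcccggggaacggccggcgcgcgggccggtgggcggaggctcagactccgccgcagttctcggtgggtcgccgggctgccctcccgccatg
Xbp1: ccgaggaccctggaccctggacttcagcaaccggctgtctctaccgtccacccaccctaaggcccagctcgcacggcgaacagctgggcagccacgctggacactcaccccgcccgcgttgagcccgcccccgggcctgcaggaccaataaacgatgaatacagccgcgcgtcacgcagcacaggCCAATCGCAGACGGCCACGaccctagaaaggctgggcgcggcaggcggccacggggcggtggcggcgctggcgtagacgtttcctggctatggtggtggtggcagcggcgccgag
Herpud1: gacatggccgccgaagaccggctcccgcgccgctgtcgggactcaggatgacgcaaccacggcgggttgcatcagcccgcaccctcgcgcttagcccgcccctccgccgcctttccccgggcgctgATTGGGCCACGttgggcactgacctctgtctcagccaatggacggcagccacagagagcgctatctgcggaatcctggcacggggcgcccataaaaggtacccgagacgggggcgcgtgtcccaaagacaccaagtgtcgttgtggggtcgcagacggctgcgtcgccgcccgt
Hyou1: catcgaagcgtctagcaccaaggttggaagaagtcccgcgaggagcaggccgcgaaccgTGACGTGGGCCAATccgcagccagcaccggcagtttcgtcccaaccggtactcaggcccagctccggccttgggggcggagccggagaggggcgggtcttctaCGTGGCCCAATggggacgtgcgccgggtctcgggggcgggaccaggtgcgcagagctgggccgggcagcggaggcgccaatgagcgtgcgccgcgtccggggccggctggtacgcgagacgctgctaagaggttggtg
The ERSE of Hspa5 began 43 bases before the start and that of Xbp1 65 bases before it. Hsp90b1 held an ERSE on each strand, with first bases 176 and 72 bases before the start.

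Libraries held 10757440 (replicate 3) to 43071223 (replicate 8) reads in genes. Multiply aligned reads, those that fit more than 1 place, made 14.9% (replicate 2) to 22.1% (replicate 5) of all counted reads, and reads outside genes 22.0% (replicate 5) to 31.3% (replicate 3). Wilson 95% intervals of these shares were at most 0.0404 percentage points wide and cover counting error only. Replicates 1 to 3 stood apart in genes of the circadian clock, with Nr1d1 at 1309 to 1346 there and at 110.1 to 242.6 in replicates 4 to 9, so relations are also given within replicates 4 to 9. Replicate 1 stood apart in the summed level of 5 collecting duct markers, at 33878 against a median of 18405. Markers of the proximal tubule, the main cell of cortex, were present throughout, with 6 of 7 listed genes in the table and a summed level of 126685 to 234629. B and plasma cell markers, which would mark cells with a large secretory ER, were low, with the 7 of 9 listed genes in the table summing to 86.4 to 147.7 and 0 of them at 0 in all replicates. In bulk tissue, fewer cells of a type and less RNA per cell cannot be told apart.

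The main ER chaperones, which bind unfolded chains in the ER lumen, varied about as much as other genes. Hspa5 encodes BiP, the HSP70 chaperone that also holds the sensors inactive. Its level was lowest in replicate 1 (12458), had a median of 19423 and was highest in replicate 9 (30130), with a mean of 19914 ± 5507 (SD, n = 9). Replicates 3 (26604) and 9 stood above the other 7, which lay between 12458 and 20969. Hsp90b1 encodes GRP94, the HSP90 of the ER lumen. It was lowest in replicate 1 (13384), had a median of 20407 and was highest in replicate 9 (30880), with a mean of 21498 ± 5650 (SD, n = 9). The same pair of replicates was high and the same one was low. Hyou1 encodes GRP170, which exchanges nucleotide on BiP. It ran from 2844 in replicate 2 through a median of 3690 to 4387 in replicate 9, with a mean of 3599 ± 527 (SD, n = 9). Replicates 1 to 3 were its 3 lowest, at 2844 to 3177, and replicate 6 (4264) stood beside replicate 9 at the top.

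The helpers of these chaperones fell into different patterns. Dnajb9 encodes ERdj4, a J-domain partner of BiP that restrains IRE1. It was 1127 in replicate 5, 1417 at the median and 2117 in replicate 9, with a mean of 1543 ± 383 (SD, n = 9). Replicates 2, 3, 6 and 9 were high, at 1683 to 2117, and the other 5 lay between 1127 and 1417. Pdia4 encodes ERp72, a disulfide isomerase, and had 2301 in replicate 1, 2816 at the median and 3538 in replicate 9 (mean 2809 ± 398, SD, n = 9). Its order followed that of Hspa5, with replicates 1 and 2 lowest and 9 highest. Sdf2l1 encodes a protein that works with the J-domain chaperone ERdj3 in the ER lumen. It had the widest range of the 10, from 157.3 in replicate 3 through a median of 353.4 to 794.3 in replicate 5 (mean 383.6 ± 188.0, SD, n = 9), resting on 79 to 1085 reads a library. Replicate 5 stood alone at the top, and replicates 2 (188.0) and 3 stood below the rest. Creld2, an ER protein with roles in disulfide exchange, ran from 828.1 in replicate 2 through 1013 at the median to 1205 in replicate 8 (mean 1010 ± 113, SD, n = 9). Its low replicates were again 2 and 3 and its high ones 8 and 5.

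The degradation gene and the transcription factors ran differently from the large chaperones. Herpud1 encodes HERP, a membrane component of ER-associated degradation. It ran from 5370 in replicate 6 through 6444 to 8726 in replicate 2 (mean 6526 ± 933, SD, n = 9). Replicate 2 stood alone, and the other 8 lay at 6840 or below. Xbp1 ran from 2835 in replicate 3 through 3194 to 3721 in replicate 2 (mean 3229 ± 298, SD, n = 9). Replicates 1 and 2, where Hspa5 was low, were its highest, and replicate 3, where Hspa5 was high, its lowest. Gene counts do not part spliced from unspliced Xbp1 mRNA, so its splicing was not measured. Creb3l1 encodes OASIS, a membrane-bound factor related to ATF6 that is known for collagen secretion in mouse bone. It was 146.0 in replicate 2, 240.6 at the median and 355.0 in replicate 5 (mean 251.6 ± 70.4, SD, n = 9), with 87 to 543 reads a library. Its low and high replicates matched those of Sdf2l1, with 2 and 3 lowest and 5 highest.

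**Figure D1:**
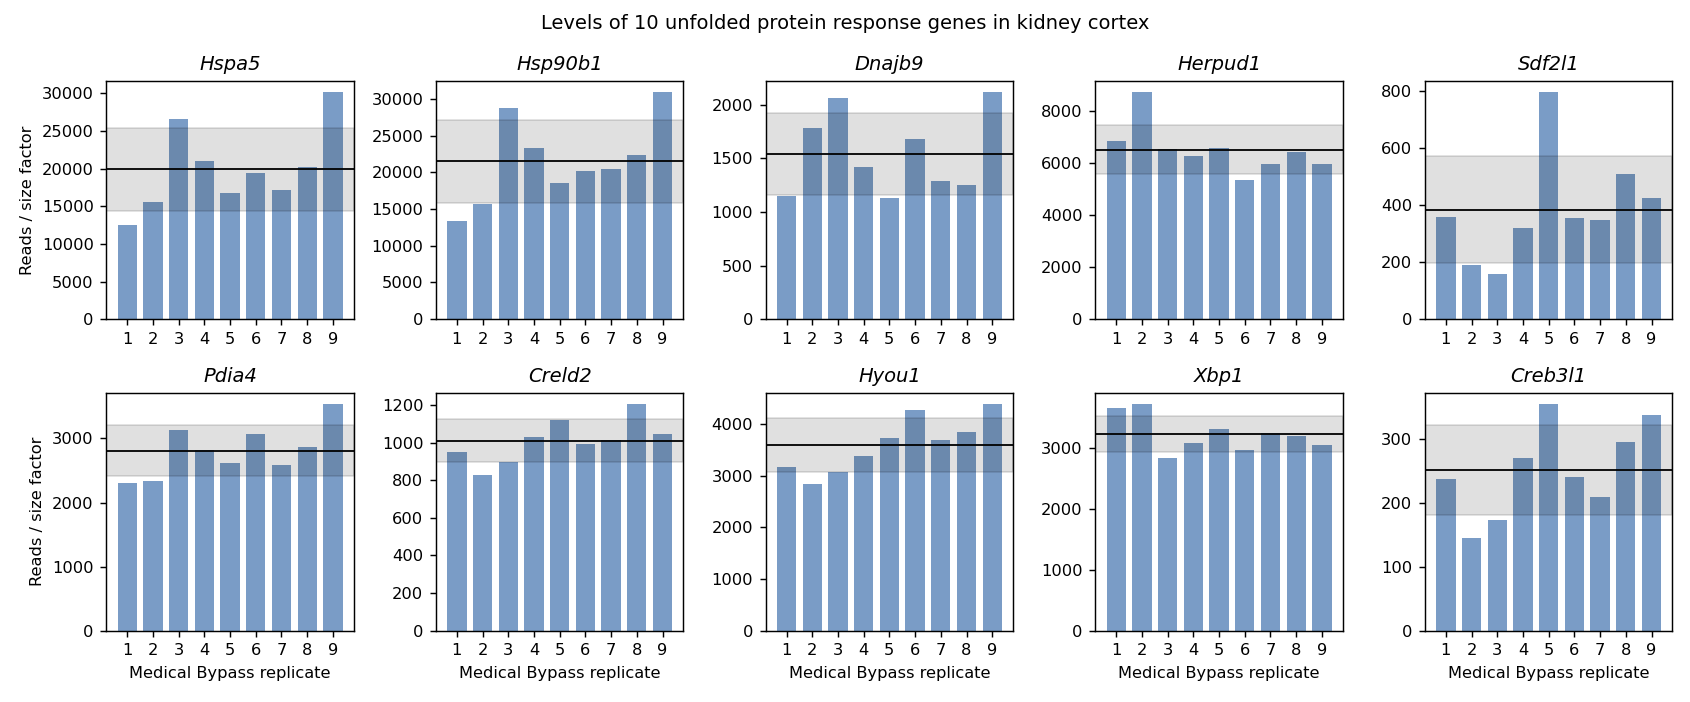
Levels of the 10 genes (reads divided by size factor, linear axis from 0) in each of the 9 Medical Bypass replicates; bars are single libraries, the line is the mean and the band 1 SD. Hspa5, Hsp90b1 and Pdia4 peak in replicate 9 and are lowest in replicate 1, while Sdf2l1 and Creb3l1 peak in replicate 5.

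The highest replicate exceeded the lowest by more than 2-fold for 4 of the 10 genes, Sdf2l1 (5.05-fold), Creb3l1 (2.43-fold), Hspa5 (2.42-fold) and Hsp90b1 (2.31-fold), a share below the 50.5% of all 13647 genes tested. The other 6 ranged from 1.31-fold for Xbp1 to 1.88-fold for Dnajb9, and the median gene ranged 2.01-fold. Without replicate 1, in which Hspa5 and Hsp90b1 were lowest, 2 of the 10 passed 2-fold. Coefficients of variation ran from 9.24% (Xbp1) to 49.0% (Sdf2l1), around the median of 23.0% for all genes tested. Variance was compared with that of genes of like level by limma. Of 13647 genes, 0 passed after Benjamini-Hochberg adjustment (0% called, lowest adjusted p = 0.964), and 548 (4.02%) had an unadjusted p under 0.05. Sdf2l1 was the 1 gene of the 10 among these, with a variance 5.50 times the trend (limma unadjusted p = 0.0494, adjusted p = 0.964). Variances of the other 9 stood between 0.266 (Xbp1) and 1.96 (Dnajb9 and Hspa5) times the trend, all short of that p.

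Whether the 10 genes moved together from replicate to replicate was asked for all 45 pairs. Pearson r was above 0 in 25 pairs and below 0 in 20. The exact two-sided permutation p over 362880 pairings was under 0.05 in 10 and 4 of these, unadjusted over the 45 pairs. The share of all gene pairs at that p was not computed. For scale, counts of genes out of 13646 with an unadjusted p under 0.05 are given from the limma slope fits described below. The limma p is not the permutation p used for the pairs. The counts were 1397 positive and 1784 negative on Hspa5, 2165 and 2210 on Sdf2l1, and 3463 and 3531 on Dnajb9. They were 1540 and 1614 on Creld2, 1022 and 1295 on Hsp90b1, and 872 and 1248 on Pdia4. Lower counts came from Xbp1 (664 and 502), Creb3l1 (503 and 447) and Hyou1 (189 and 346). Herpud1 had the fewest, 180 and 48. Over all replicates the closest pairs lay in a set around Hspa5 and a set around Sdf2l1, and r between these sets depended on the setting, as given below. Hspa5 and Hsp90b1 were the closest pair, with r = 0.982 (exact permutation p = 1.10e-05) and Spearman rho = 0.983 (exact permutation p = 4.96e-05). The r was 0.960 without the 2 replicates farthest from the median Hspa5 level, 0.972 to 0.990 leaving out each replicate in turn and 0.976 in replicates 4 to 9. Pdia4 followed Hspa5 with r = 0.941 (exact permutation p = 0.000314) and rho = 0.917 (exact permutation p = 0.00131), 0.858 without the 2 farthest replicates and 0.926 in replicates 4 to 9. Pdia4 and Hsp90b1 had r = 0.916 (exact permutation p = 0.000818) and rho = 0.850 (exact permutation p = 0.00607), with 0.815 and 0.829 in the same checks. Dnajb9 was looser, with r = 0.727 to Hspa5 (exact permutation p = 0.0264), rho = 0.633 (exact permutation p = 0.0760), 0.483 without the 2 farthest replicates and 0.868 in replicates 4 to 9.

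The second set held Sdf2l1, Creb3l1 and Creld2. Sdf2l1 and Creb3l1 had r = 0.895 (exact permutation p = 0.00157) and rho = 0.850 (exact permutation p = 0.00607), with 0.884 without the 2 replicates farthest from the median Sdf2l1 level and 0.745 in replicates 4 to 9. Creld2 had r = 0.856 with Sdf2l1 (exact permutation p = 0.00529), rho = 0.80 (exact permutation p = 0.0138), 0.925 without the 2 farthest replicates and 0.700 in replicates 4 to 9. Creld2 and Creb3l1 had r = 0.869 (exact permutation p = 0.00272), rho = 0.90 (exact permutation p = 0.00203), 0.887 without the 2 farthest replicates and 0.574 in replicates 4 to 9. Without a covariate, Hyou1 did not belong to either set alone. Over all replicates its r was 0.648 with Sdf2l1 (exact permutation p = 0.0572; rho = 0.70, exact permutation p = 0.0433) and 0.651 with Pdia4 (exact permutation p = 0.0590; rho = 0.567, exact permutation p = 0.121). The r without the 2 farthest replicates was 0.738 for Sdf2l1 and 0.411 for Pdia4. In replicates 4 to 9 it had 0.777 with Pdia4, 0.722 with Dnajb9 and 0.542 with Hspa5, but 0.045 with Sdf2l1. The r of Hyou1 with Creb3l1 was 0.736 (exact permutation p = 0.0247) and rho 0.767 (exact permutation p = 0.0214), 0.343 without the 2 farthest replicates and 0.189 in replicates 4 to 9. With Creld2 its r was 0.687 (exact permutation p = 0.0398) and rho 0.733 (exact permutation p = 0.0311), 0.570 without the 2 farthest replicates and -0.138 in replicates 4 to 9. Hspa5 and Sdf2l1 had r = -0.149 (exact permutation p = 0.710) and rho = -0.117 (exact permutation p = 0.776), -0.395 without the 2 farthest replicates, -0.255 in replicates 4 to 9 and 0.175 without replicate 3.

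Xbp1 ran against Hspa5, Hsp90b1 and Pdia4. Its r was -0.823 with Hspa5 (exact permutation p = 0.00769), -0.856 with Hsp90b1 (exact permutation p = 0.00456) and -0.867 with Pdia4 (exact permutation p = 0.00265). The rho values were -0.850 (exact permutation p = 0.00607), -0.783 (exact permutation p = 0.0172) and -0.90 (exact permutation p = 0.00203), and r without the 2 farthest replicates was -0.869, -0.876 and -0.960. Within replicates 4 to 9 the 3 values were -0.576, -0.451 and -0.745. After scaling all libraries to 1 total they were -0.575, -0.675 and -0.399, so the size of this opposition depended on the scaling. With the other chaperones and helpers it was weaker or absent. Over all replicates the r of Xbp1 was -0.478 with Hyou1 (exact permutation p = 0.195) and -0.469 with Dnajb9 (exact permutation p = 0.206). It was -0.262 with Creld2 (exact permutation p = 0.498) and 0.073 with Sdf2l1 (exact permutation p = 0.853). Herpud1 moved with Xbp1 (r = 0.723, exact permutation p = 0.0224; rho = 0.650, exact permutation p = 0.0666), and r was 0.417 without the 2 farthest replicates, 0.763 in replicates 4 to 9 and 0.503 without replicate 2. Against Hyou1 it had r = -0.804 (exact permutation p = 0.00359) and rho = -0.70 (exact permutation p = 0.0433), -0.644 without the 2 farthest replicates and -0.586 in replicates 4 to 9. The sign of r in replicates 4 to 9 matched that over all replicates in 34 of the 45 pairs and turned in 11. These pairs share the same 9 libraries, and adjusted values come from the fits over all genes below.

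**Figure D2:**
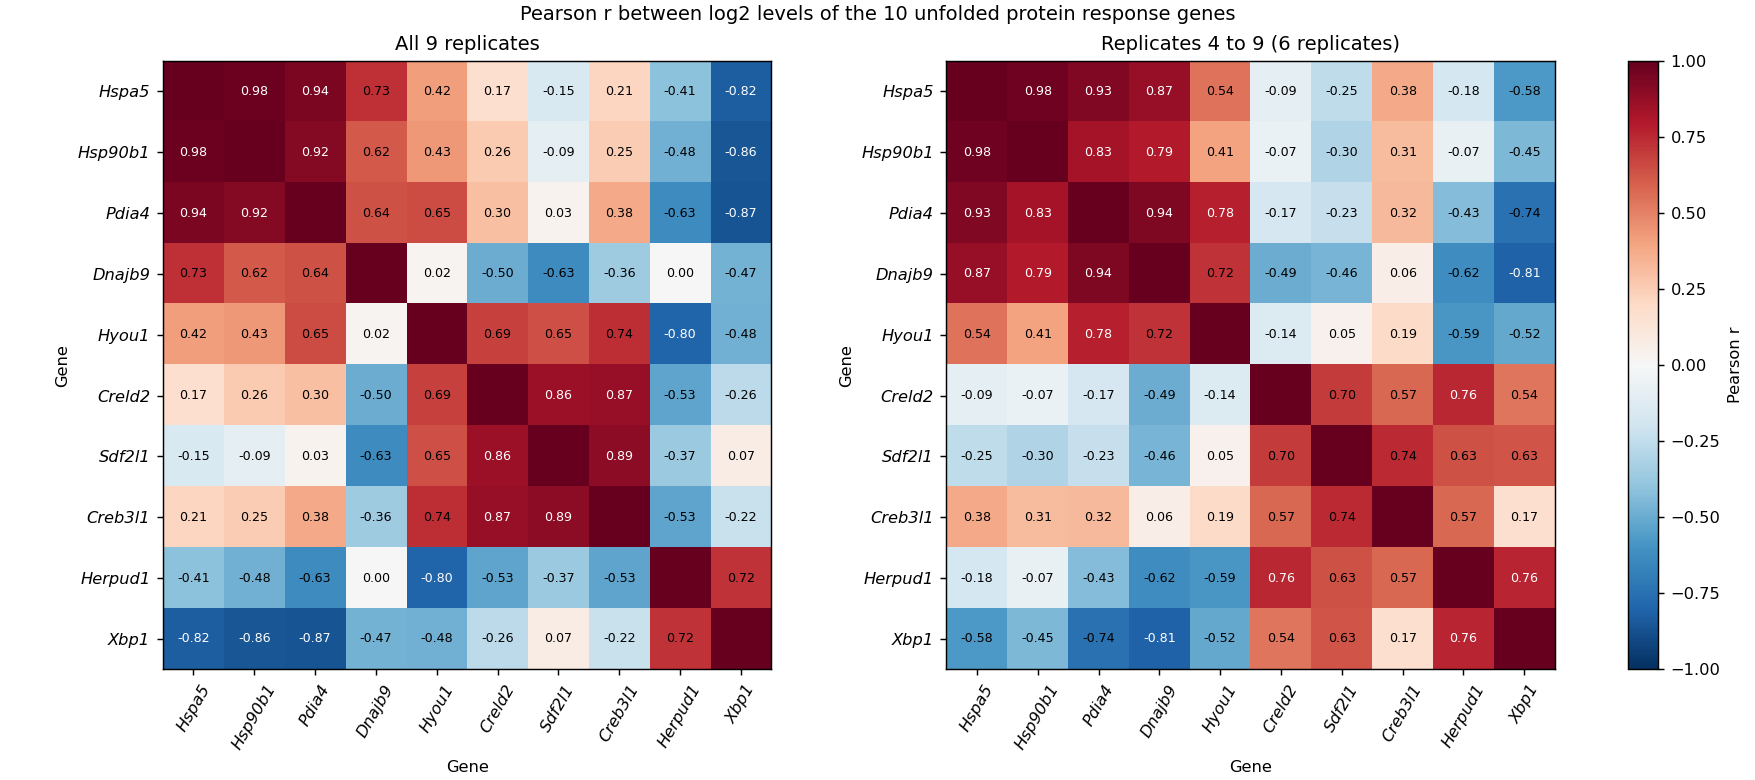
Pearson r between log2 levels of each pair of the 10 genes over all 9 replicates (left) and over replicates 4 to 9 (right); red is positive and blue negative. Hspa5, Hsp90b1 and Pdia4 keep r of 0.829 or more with each other in both panels, and the r of Hyou1 with Creld2 turns below 0 on the right.

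**Figure D3:**
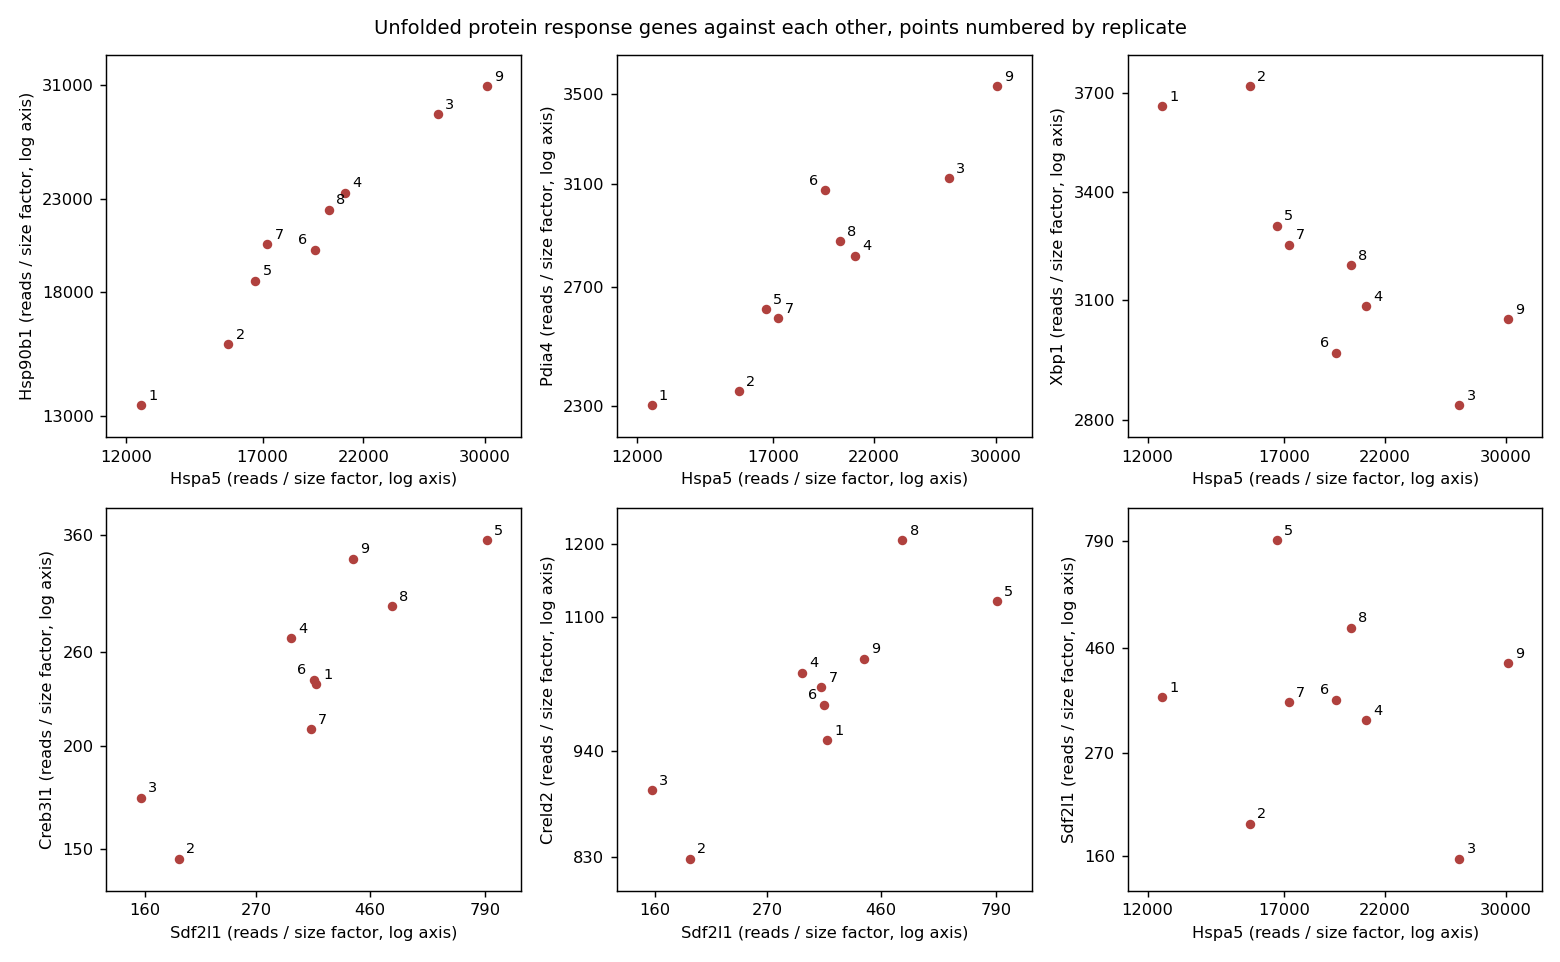
Levels (reads divided by size factor, both axes log scaled) of 6 pairs of genes, with points numbered by replicate. Hsp90b1 and Pdia4 climb and Xbp1 declines along Hspa5, Creb3l1 and Creld2 climb along Sdf2l1, and Sdf2l1 and Hspa5 have r = -0.149.

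Which genes of the whole table followed Hspa5 was asked with a limma slope of each gene's log2 level on that of Hspa5. Of 13646 genes, 0 passed an adjusted p of 0.05 (0% called), so 0 of the other 9 response genes did. At an unadjusted p under 0.05 there were 1397 genes with a positive slope (10.2%) and 1784 with a negative one (13.1%). Of the 9 genes, 3 were in the first set and 0 in the second. Hsp90b1 had a slope of 0.97 ± 0.15 (SE), close to 1 log2 unit per log2 unit of Hspa5 (limma adjusted p = 0.0934). Pdia4 had 0.49 ± 0.14 (limma adjusted p = 0.103) and Dnajb9 0.66 ± 0.22 (limma adjusted p = 0.136). Xbp1 had -0.28 ± 0.14 (limma adjusted p = 0.248). Slopes of Hyou1 (0.23), Creb3l1 (0.23), Creld2 (0.07), Herpud1 (-0.20) and Sdf2l1 (-0.27) had limma adjusted p-values of 0.469 to 0.819. Hsp90b1 and Pdia4 passed after scaling all libraries to 1 total (limma adjusted p = 0.0209 and 0.0474) and in DESeq2 on recovered reads (adjusted p = 2.12e-13 and 0.00651), where 10.1% and 7.58% of all genes passed. Over all alternatives their adjusted p-values ran from 2.12e-13 to 0.336 and from 0.00651 to 0.360. By edgeR's quasi-likelihood test on the same reads 0 genes passed (lowest adjusted p = 0.0692), with 1229 positive and 1756 negative slopes at an unadjusted p under 0.05.

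The genes with the largest positive slope statistics included 4 chaperones or co-chaperones of the cytosol. Hsph1, an HSP110 that exchanges nucleotide on HSP70, had a slope of 1.23 ± 0.18, with levels from 2814 in replicate 1 through a median of 4480 to 8319 in replicate 9. Hsp90aa1, the inducible cytosolic HSP90, had 1.35 ± 0.21, with levels from 6469 to 24846 in the same replicates. Chordc1, a co-chaperone of HSP90, had 1.12 ± 0.17, and Dnaja1, a J-domain partner of HSP70, 1.05 ± 0.18. The rest of the top 10 were Hsp90b1, the splicing factor Srsf10 (1.03), the translation initiation subunit Eif3a (1.01), the sugar transferase Ggta1 (0.95), the metabolic repair enzyme Echdc1 (0.90) and the histone methyltransferase Kmt5a (0.79). Each of these 10 was lowest in replicate 1 and had a limma adjusted p of 0.0934. On the negative side Cldn3, a tight junction claudin, had -2.01 ± 0.24 with levels from 53.4 in replicate 9 through 128.4 to 321.9 in replicate 1 (limma adjusted p = 0.0542). Gpsm1, a modulator of G protein signalling, had -1.45, Vasn, which binds TGF-beta, -0.96, Tmem121 -2.32 and the heat shock factor Hsf4 -2.14 (each limma adjusted p = 0.0934). All 5 were highest in replicate 1 and lowest in replicate 9, and Tmem121 and Hsf4 averaged 19.8 and 14.2, so few reads lie behind them.

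Other genes of the pathway were taken from lists. No listed gene passed, so counts at an unadjusted p under 0.05 are given against the background of 10.2% positive and 13.1% negative, and the median slope against 0.02 for all genes, of which 51.3% had a slope above 0. Of 20 other ER chaperones and oxidoreductases, 8 were positive and 0 negative at that p, with a median slope of 0.33 and 15 slopes above 0. Dnajc3, the J-domain inhibitor of PERK also known as p58IPK, had 0.78 ± 0.15 (limma adjusted p = 0.0934). Canx, the membrane lectin chaperone calnexin, had 0.77 ± 0.21 at a mean level of 21978 ± 5385, and Calr, its soluble relative calreticulin, 0.63 ± 0.26 at 32775 ± 7679 (SD, n = 9). Pdia3, the disulfide isomerase that works with both, had 0.62 ± 0.15. Ero1b, an oxidase that feeds these isomerases, varied most, from 64.4 in replicate 5 to 212.6 in replicate 6. Among 6 sensors and activating proteases 1 was positive, the PERK gene Eif2ak3 (0.43 ± 0.18), and the median slope was 0.46. Ern1, the IRE1 gene, ran from 63.7 in replicate 5 to 306.9 in replicate 6 with a slope of 0.48 ± 0.56. Mbtps1, the protease that first cuts ATF6, had -0.08 ± 0.15 at 2695 ± 217, and Atf6b, a relative of ATF6, -0.54 ± 0.25 at 1262 ± 307 (SD, n = 9).

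Other arms showed smaller medians. Of 14 degradation genes 1 was positive, the membrane adaptor Ubxn4 (0.59 ± 0.16), and 1 negative, the HRD1 ligase gene Syvn1 (-0.55 ± 0.17), with a median of 0.16. The 2 with the highest mean in this list, the ATPase Vcp and the lectin Os9, had 0.28 ± 0.16 and 0.18 ± 0.24, and the mannosidase-like Edem3 varied most, from 123.7 in replicate 5 to 847.7 in replicate 6. Of 17 translocation and export genes 4 were positive (Sec62, Sec63, Ssr1 and Ssr3) and 1 negative (Sec61b), with a median of 0.10. Sec62 averaged 7631 ± 1789 and Sec31a, a coat subunit of export vesicles with a slope of -0.27 ± 0.18, 4583 ± 583 (SD, n = 9). Spcs3, a signal peptidase subunit, ran from 168.4 in replicate 5 to 659.0 in replicate 6. Of 12 genes of the PERK and ATF4 branch 2 were positive (Psat1 and Eif2s1) and 1 negative (the pseudokinase Trib3, -1.35 ± 0.52), with a median of 0.08. Trib3 averaged 13.3, with at most 34 reads in a library, so few reads lie behind its slope. Atf4 itself had 0.05 ± 0.19 at a mean of 4251 ± 510, and the serine synthesis enzyme Phgdh 0.23 ± 0.38 at 3959 ± 1234 (SD, n = 9). The cystine transporter gene Slc7a11, with a mean of 2.05, lay under the filter. Relatives of Creb3l1 gave 0 of 3 in either direction, with Creb3l3 at 6466 ± 1690 and Creb3 at 1065 ± 111 (SD, n = 9) and Creb3l4 at 1.16, under the filter. Of 5 cell death genes 2 were negative, Bok (-1.63 ± 0.33) and Bak1 (-0.69 ± 0.27), and Bax had 0.15 ± 0.33. Bcl2l11, which encodes the death activator BIM, ran from 5.12 in replicate 5 to 28.0 in replicate 6.

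Heat shock genes of the cytosol and mitochondria, which belong to a separate stress response, had the highest median. Of 9 tested, 6 were positive and 0 negative, the median slope was 0.60 and 8 slopes lay above 0. Hspd1, the mitochondrial HSP60, had 0.89 ± 0.18, the constitutive HSP70 gene Hspa8 0.71 ± 0.22 at 34491 ± 8152, and the constitutive HSP90 gene Hsp90ab1 0.60 ± 0.20 at 45906 ± 8747 (SD, n = 9). The small heat shock gene Hspb1 had -0.50 ± 0.46, at 384.5 in replicate 2 and 1471 in replicate 5. Hspa1a was listed at 0 in all 9 replicates, which is uncertain for a gene with a near-identical copy. Listed genes named here for their unadjusted p alone, such as Dnajc3, Pdia3, Eif2ak3, Syvn1, Trib3, Bok and Hspd1, were chosen after their values were seen. Summed levels of marker lists had r of either sign with Hspa5. All 5 collecting duct markers had slopes below 0, 3 at an unadjusted p under 0.05, with a median of -0.59. Their summed level had r = -0.733 with Hspa5 over all replicates and -0.847 in replicates 4 to 9, and that of 2 thick ascending limb markers -0.813 and -0.583. Of these 2, Umod had a slope of -0.75 ± 0.18 and Slc12a1 -0.05 ± 0.37. The summed level of proximal tubule markers had r = -0.140 over all replicates and -0.816 in replicates 4 to 9. Of its 6 genes, 3 had slopes above 0 and 3 below. Slc5a12, at 1.38 ± 0.37, was the 1 with an unadjusted limma p under 0.05. The sum of podocyte markers had r = 0.311 and 0.721, and that of B and plasma cell markers 0.616 and 0.475. Fibroblast markers had -0.019 and 0.587, and macrophage markers -0.432 and -0.122. Of the 7 B and plasma cell genes in the table, 3 reached the filter. Their slopes were 0.73 ± 0.30 for Prdm1, -0.71 ± 0.53 for Jchain and 0.11 ± 0.37 for Pou2af1. Prdm1 made most of that sum, at a mean of 72.1 against 17.3 for Jchain and 14.1 for Pou2af1. The part of these cell types in the Hspa5 relations was not tested.

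**Figure D4:**
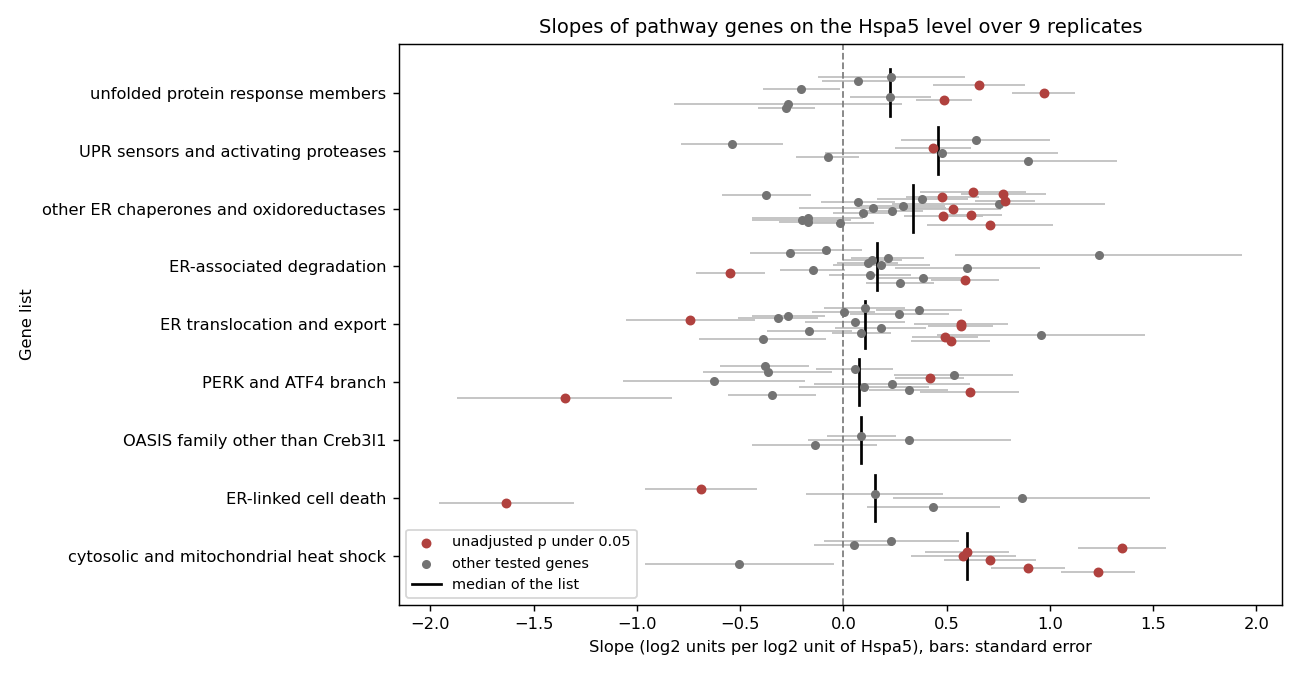
Slopes of the listed genes on Hspa5 (log2 units per log2 unit, with standard errors) over 9 replicates; each point is a gene, red where the unadjusted limma p is under 0.05, and black bars are list medians. The medians are 0.33 for other ER chaperones and 0.60 for cytosolic and mitochondrial heat shock genes, against 0.02 for all genes tested, and no gene passed after adjustment.

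Some of the 10 genes ran with a property of the libraries. In all, 30 relations to 3 measures were computed, and p-values are unadjusted where not said otherwise. None passed for Hspa5, which had r = -0.351 to library size (exact permutation p = 0.354), -0.437 to the share of multiply aligned reads (exact permutation p = 0.239) and 0.232 to the share outside genes (exact permutation p = 0.532). The rho values were -0.150 (exact permutation p = 0.708), -0.233 (exact permutation p = 0.552) and 0.200 (exact permutation p = 0.613), r without the 2 farthest replicates -0.164, -0.034 and 0.210, and the exact permutation p of each r adjusted over these 3 measures 0.532. Dnajb9 had r = -0.820 with the share of multiply aligned reads (exact permutation p = 0.00464), rho = -0.833 (exact permutation p = 0.00827), -0.785 without the 2 farthest replicates and -0.768 in replicates 4 to 9. Sdf2l1 had r = 0.766 with that share (exact permutation p = 0.0166), rho = 0.683 (exact permutation p = 0.0503), 0.630 without the 2 farthest replicates and 0.874 in replicates 4 to 9. With the share outside genes Sdf2l1 had r = -0.811 (exact permutation p = 0.00363), rho = -0.733 (exact permutation p = 0.0311), -0.530 without the 2 farthest replicates and -0.867 in replicates 4 to 9. Dnajb9 had r = 0.692 with that share (exact permutation p = 0.0186), rho = 0.80 (exact permutation p = 0.0138) and 0.784 in replicates 4 to 9. Creld2 had r = -0.680 with it (exact permutation p = 0.0464), rho = -0.817 (exact permutation p = 0.0108) and -0.599 in replicates 4 to 9. Creb3l1 had r = 0.612 with the multiply aligned share (exact permutation p = 0.0793) and -0.633 with the share outside genes (exact permutation p = 0.0608). The same relations were not computed for all genes. Replicate 5, the highest for Sdf2l1, had both the largest multiply aligned share and the smallest share outside genes. With the multiply aligned share as a covariate the r of Sdf2l1 with Creb3l1 was 0.838 and that with Creld2 0.781, and that of Hspa5 with Hsp90b1 0.984. Pairs between the sets were higher with that covariate. Pdia4 had r = 0.821 with Creb3l1 and 0.689 with Creld2, against 0.378 and 0.301 without the covariate. Hspa5 had 0.674 with Creb3l1, 0.583 with Creld2 and 0.322 with Sdf2l1, against 0.212, 0.167 and -0.149 without it. With the covariate Hyou1 had 0.935 with Sdf2l1, 0.883 with Creb3l1 and 0.805 with Creld2, against 0.648, 0.736 and 0.687 without it. In the same setting Hyou1 had 0.727 with Pdia4, 0.496 with Hspa5 and 0.487 with Hsp90b1, against 0.651, 0.417 and 0.432. The r of Sdf2l1 with Dnajb9 was -0.631 without the covariate (exact permutation p = 0.0702; rho = -0.567, exact permutation p = 0.121) and -0.006 with it.

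**Figure D5:**
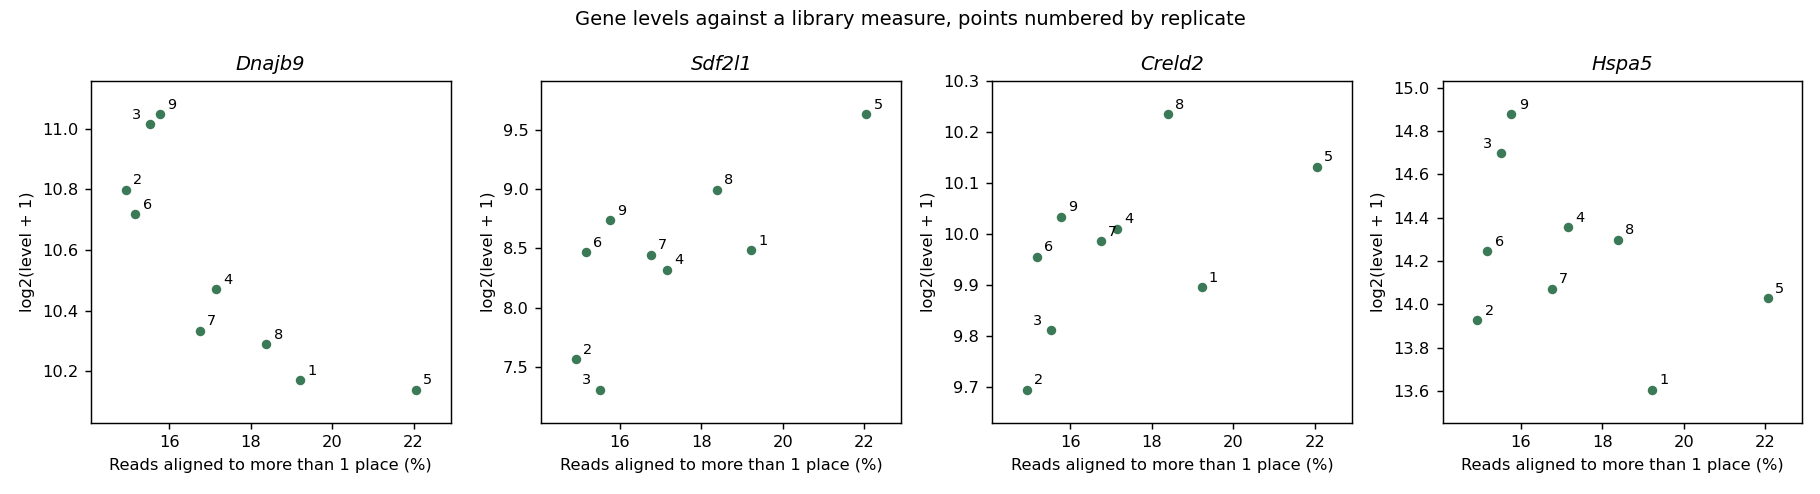
Log2 levels (value plus 1) of Dnajb9, Sdf2l1, Creld2 and Hspa5 against the share of counted reads that were multiply aligned (percent), with points numbered by replicate. Dnajb9 declines (r = -0.820) and Sdf2l1 climbs (r = 0.766) with the share, while Hspa5 has r = -0.437.

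The same fit was run with each other gene of the 10 in place of Hspa5, a step added after the data were seen. On Dnajb9, 2953 genes (21.6%) had a positive slope past an adjusted p of 0.05 and 2939 (21.5%) a negative one, together 43.2% of genes tested. Against that background 2 of the 9 other response genes passed, Hspa5 with a slope of 0.80 ± 0.27 (limma adjusted p = 0.0273) and Sdf2l1 with -1.25 ± 0.46 (limma adjusted p = 0.0457). Of 6 sensors and proteases 4 passed upward (Ern1, Eif2ak3, Atf6 and Mbtps2) and 1 downward (Atf6b), and of 20 other ER chaperones 6 passed upward, among them Ero1b, Canx and Dnajc3, and 3 downward (Creld1, Ppib and Sil1). With the share of multiply aligned reads as a covariate, 0 genes passed in the Dnajb9 fit. The genes with the highest r to Dnajb9 were Fbxo30, a ubiquitin ligase subunit (0.986), Txlna (0.984) and the kinase Stk38l (0.982).

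On Sdf2l1, 14 genes (0.103%) passed with a positive and 3 (0.022%) with a negative slope, and 0 of the other 9 response genes did (0.125% called in all). Creb3l1 came nearest, with a slope of 0.54 ± 0.12 (limma adjusted p = 0.0665). Among the positive genes was Erp29, a folding factor of the ER lumen (0.63 ± 0.10). Others were the stress-inducible growth arrest genes Gadd45g (0.89 ± 0.10) and Cdkn1a (1.14 ± 0.15), Hspb1 (0.81 ± 0.12), the lysosomal protease Ctsd (0.56 ± 0.09) and the smooth muscle gene Tagln (0.84 ± 0.13), with limma adjusted p-values of 0.0153 to 0.0412. All 14 positive genes were highest in replicate 5. The 3 negative ones were the clock repressor Nr1d2 (-1.95 ± 0.23), Zmat1 and Pspc1, each highest in replicate 3 and lowest in replicate 5. Erp29, Cdkn1a, Nr1d2, Zmat1 and Pspc1 were chosen after their values were seen. The number of genes passing was 0 without replicate 3, 0 without replicate 5, 0 in replicates 4 to 9 alone, 48 without replicate 1, 8 without replicate 2, 6 without replicate 4, 1 without replicate 8 and 3856 without replicate 9. The highest r to Sdf2l1 belonged to Ctsd (0.973), the kinase gene Mapkapk2 (0.971) and Gadd45g (0.964). The summed level of 7 macrophage markers had r = 0.813 with Sdf2l1 over all replicates and 0.797 in replicates 4 to 9. The sums ran from 6099 to 9299. Lyz2 made most of this sum, at a mean of 5906, and was highest in replicate 1, as was Csf1r. Adgre1 was highest in replicate 2, and Cd68, C1qa, C1qb and C1qc in replicate 5. In the Sdf2l1 fit 0 of the 7 passed. The part of macrophages in this pattern was not tested.

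Fits on the remaining 7 genes passed at most 2 genes each over all replicates, but as many as 536 without replicate 2 (on Pdia4) and 4415 in replicates 4 to 9 alone (on Xbp1). On Creb3l1 these were Tagln (slope 1.47 ± 0.17, limma adjusted p = 0.0226) and Ppard, a lipid-sensing nuclear receptor (1.83 ± 0.23, limma adjusted p = 0.0371), or 0.0147% of genes. They also had 2 of the 3 highest r to it, 0.972 and 0.943. The genes with high r to Hyou1 included the cytoplasmic actin gene Actg1 (0.934) and the chemokine gene Ccl2 (0.894). On Creld2 the 1 gene was Nr1d2 (-8.56 ± 0.92, limma adjusted p = 0.0113, 0.00733% called), which parted replicates 1 to 3 from replicates 4 to 9 and was named after its values were seen. The highest r to Creld2 belonged to Zfp503 (0.957), the adenosine deaminase gene Ada (0.956) and Fdps, an enzyme of cholesterol synthesis (0.955). For Hsp90b1, with 0% called, they belonged to Hspa5, the HSP90 co-chaperone gene Ptges3 (0.974) and the proteasome gene Psma3 (0.972). For Pdia4 they were Hsph1 (0.966), Hsp90aa1 (0.948) and the translation factor gene Eif4g3 (0.947). Herpud1 was nearest to the DNA repair gene Fancc (0.894), Ces4a (0.890) and S100b (0.879), and Xbp1 to Cd300lf (0.957), Slc35d2 (0.940) and the DNA repair gene Mutyh (0.939). These values of r are over 9 replicates and were picked as the highest of all genes tested, so they describe likeness only.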

How the data were processed

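RNA of kidney cortex from 9 Medical Bypass replicates was sequenced from stranded mRNA libraries, per the labels' protocols. Per the submitters' processing notes, the tools were FastQC 0.11.2, MultiQC 0.9, HTSeq 0.6.1p1 and DESeq2 on the build Rnor_5.0. No source used here names the aligner. The deposited signal is gene read counts divided by a size factor per library, made by the authors. Dividing by the value of 1 read gave whole reads, within 0.1 read, for 99.988% to 99.994% of values above 0. Rows outside genes (3) were used only as library measures.

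Tests used log2(value + 1) of genes with a mean of at least 10, with limma 3.58.1 in R 4.3.3 (robust trend, Benjamini-Hochberg over all genes, threshold 0.05). Exact permutation tests were two-sided and ran in Python 3.11.15. edgeR 4.0.16 and DESeq2 1.42.0 were run on recovered reads as alternatives. The fits were run on simulated counts that had set slopes on Hspa5 and no other variation shared between genes. That run cannot show how they behave where many genes vary together across libraries. The response genes, lists and rule for named genes were chosen with earlier results of these data known. Named genes were the 10, those with the 10 largest positive and 5 largest negative slope statistics on Hspa5, the 3 with the highest r to each other gene, and in each list the 2 with the highest mean and the most variable. Values of some genes under this rule are not given in the text. Alternatives covered the pseudocount, the filter, the scaling, covariates, replicates left out and replicates 4 to 9. Fits on genes other than Hspa5, and pairs under alternatives, were added after the data were seen. No 2 libraries agreed within sampling noise.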

Additional observations from a re-analysis of the deposited data

Results flagged for a closer look

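Of 82 values examined for a replicate far from the others, 3 were marked, where chance marks about 1 group in 20. The mark is the gap from the extreme replicate to its neighbour as a share of the whole range, with a limit of 0.493 for 9 samples. Herpud1 was marked for replicate 2, at 8726 against a median of 6444, with a gap of 0.562 of the range. Without that replicate its r was 0.503 with Xbp1, -0.723 with Hyou1 and 0.036 with Creld2, against 0.723, -0.804 and -0.528 over all replicates. The summed level of collecting duct markers was marked for replicate 1, at 33878 against a median of 18405, with a gap of 0.658. Hspa5, Hsp90b1 and Pdia4 were lowest in that replicate, and the r of Hspa5 with Hsp90b1 was 0.972 without it. The share of reads outside genes was marked for replicate 5, at 22.0% against a median of 30.0%, with a gap of 0.555. Sdf2l1 and Creb3l1 were highest in that replicate, and their r was 0.870 without it. The part of these libraries in the results was otherwise not tested.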

How the results depend on the processing

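With Hspa5, 0 positive and 0 negative slopes passed, and scaling all libraries to 1 total gave 312 and 1067, DESeq2 428 and 607, and the multiply aligned share as a covariate 3 and 1; TMM scaling gave 1 negative slope. The response genes among them numbered 2 under 1 total and 2 in DESeq2, Hsp90b1 and Pdia4 both times, and 0 under every other alternative. Every pseudocount, filter and replicate left out gave 0 genes with Hspa5. The slopes of Hsp90b1, Pdia4, Dnajb9 and Hyou1 stayed above 0 and those of Xbp1 and Herpud1 below 0 in all 21 settings of the fit, while 7 slopes of 3 other genes changed sign, all with limma adjusted p-values of 0.603 or more. Sdf2l1, at -0.27 over all replicates, had 0.10 with library size, 0.41 with the multiply aligned share, and -0.73 to 0.28 leaving out each replicate (above 0 without replicate 3). Creld2, at 0.07, had -0.011 under 1 total, -0.032 in replicates 4 to 9, and -0.011 to 0.17 leaving out each replicate (below 0 without replicate 2). Creb3l1, at 0.23, had -0.085 to 0.55 leaving out each replicate (below 0 without replicate 9).

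With Dnajb9, 5892 genes passed, 4322 to 6238 leaving out each replicate and 0 with the multiply aligned share. With Sdf2l1, 17 passed, and 0 under 1 total, 0 in replicates 4 to 9, 0 with library size as a covariate, 5 with the multiply aligned share, 1939 in DESeq2 and 0 to 3856 leaving out each replicate. For the other 7 genes the most in 1 fit was 2, and 7 under TMM, 0 under 1 total, 4415 in replicates 4 to 9 (Xbp1), 0 with library size, 14 with the multiply aligned share, 441 in DESeq2 (Hsp90b1) and 0 to 536 leaving out each replicate, the highest without replicate 2 (Pdia4). Of the 10 genes, 4 ranged over 2-fold, and 2 to 4 leaving out each replicate, the lowest without replicate 1. Causes were not tested. Over all alternatives, 166 values for whole comparisons, most of them counts of genes, stayed at or near the main value and 36 moved. Of the values for single genes, which include mean levels, 297 were classed as unchanged. Another 4 crossed the threshold (Hsp90b1 and Pdia4, above), and 7 changed sign, as given above. No paired analysis was possible because the labels give 1 group. Sdf2l1 and Creb3l1 rest on as few as 79 and 87 reads in a library, which limits their precision.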
